A study of Sus scrofa with 16 samples.

Results

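Peptidases of the intestinal brush border, among them enteropeptidase, which activates pancreatic trypsinogen, were followed in the small intestine of preterm piglets: TMPRSS15, ANPEP, ENPEP, XPNPEP2, MEP1B, DPEP1 and FOLH1B. They were chosen by gene symbol, with earlier results of these data known, so their counts beside those of all probe sets are descriptions. All probe sets annotated with one of these 7 genes were taken, 9 of the 23999 on the array that are not controls. MEP1B had 3 probe sets and each of the other genes had 1. Counts and medians over 9 members are over these 9 probe sets, so that MEP1B enters them 3 times. All 9 were among the 11538 probe sets tested, those with a log2 value above 5 on at least 4 of the 16 arrays.

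Arrays came from 4 groups of 4: distal intestine of piglets given antibiotics, distal intestine of control piglets, proximal intestine of piglets given antibiotics, and proximal intestine of control piglets. The antibiotics were ampicillin, gentamicin and metronidazole, given by mouth and by intramuscular injection 2 times a day from birth, and controls received saline in matching amounts. All piglets were Landrace, Large White and Duroc crosses, born by caesarean section on gestation day 105 from 2 sows. They lived on parenteral nutrition with small enteral feeds until day 3 and on formula by stomach tube until tissue was taken on day 5. Of the 11 antibiotics and 13 control piglets of the study, the arrays hold 9, taking the number in each sample title for the animal, and 7 of these have both segments. Each array therefore stands for 1 piglet and 1 segment, but the samples are whole pieces of gut wall, in which fewer cells of a type and less RNA per cell cannot be told apart.

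Much of protein digestion takes place at the surface of the enterocyte. Enteropeptidase, anchored in the membrane of the upper small intestine, cuts pancreatic trypsinogen to trypsin, which then activates the other pancreatic proteases. The peptides they release are shortened by aminopeptidases, endopeptidases and dipeptidases of the microvillus membrane, and the products enter the cell as amino acids or as di- and tripeptides. These enzymes are laid out unevenly along the gut, with enteropeptidase best known from the duodenum and several of the terminal peptidases better known from more distal intestine.

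Expression is given as log2 values of the deposited table, so that a difference of 1 is a 2-fold difference. These values compare arrays for the same probe set only. Between 45.1% and 46.5% of the probe sets of an array lay above log2 5, arrays of one group correlated at r = 0.878 to 0.981 over the tested probe sets, and 4 arrays a group limit the precision of every comparison. The segment labels were checked on markers. Of 6 tested proximal segment markers, 2 were lower distally with antibiotics at a limma adjusted p under 0.05 (2.1% of all tested probe sets were). In controls 1 was lower (0.364% of all passed in either direction), and 1 mean was higher. The summed level of these markers was 15.36 to 15.89 distally against 17.04 to 17.31 proximally with antibiotics. Summed levels are the log2 of the sum of unlogged values, in which the brightest genes weigh most. In controls the segments overlapped, at 13.43 to 16.89 against 16.07 to 17.01. The summed level of 3 distal markers did not overlap between segments in either treatment. GATA4, a transcription factor of the proximal intestine, was lower distally in piglets given antibiotics (-3.06, SE 0.48, limma adjusted p = 0.00137) and in controls (-3.09, SE 0.48, adjusted p = 0.00434), and all 12 enterocyte markers with a probe set were tested, 0 of them under the filter. Among control distal arrays FABP6, the ileal bile acid binding protein, was 11.03 and 10.17 in piglets 83 and 88 but 7.32 and 6.64 in piglets 89 and 92, and the proximal array of control piglet 88 stood at 7.40 for this gene. On the antibiotics distal arrays FABP6 was 10.64, 7.97, 10.27 and 10.52. The pancreatic acinar markers, 6 genes with a probe set, lay under the filter level on all 16 arrays.

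**Figure D1:**
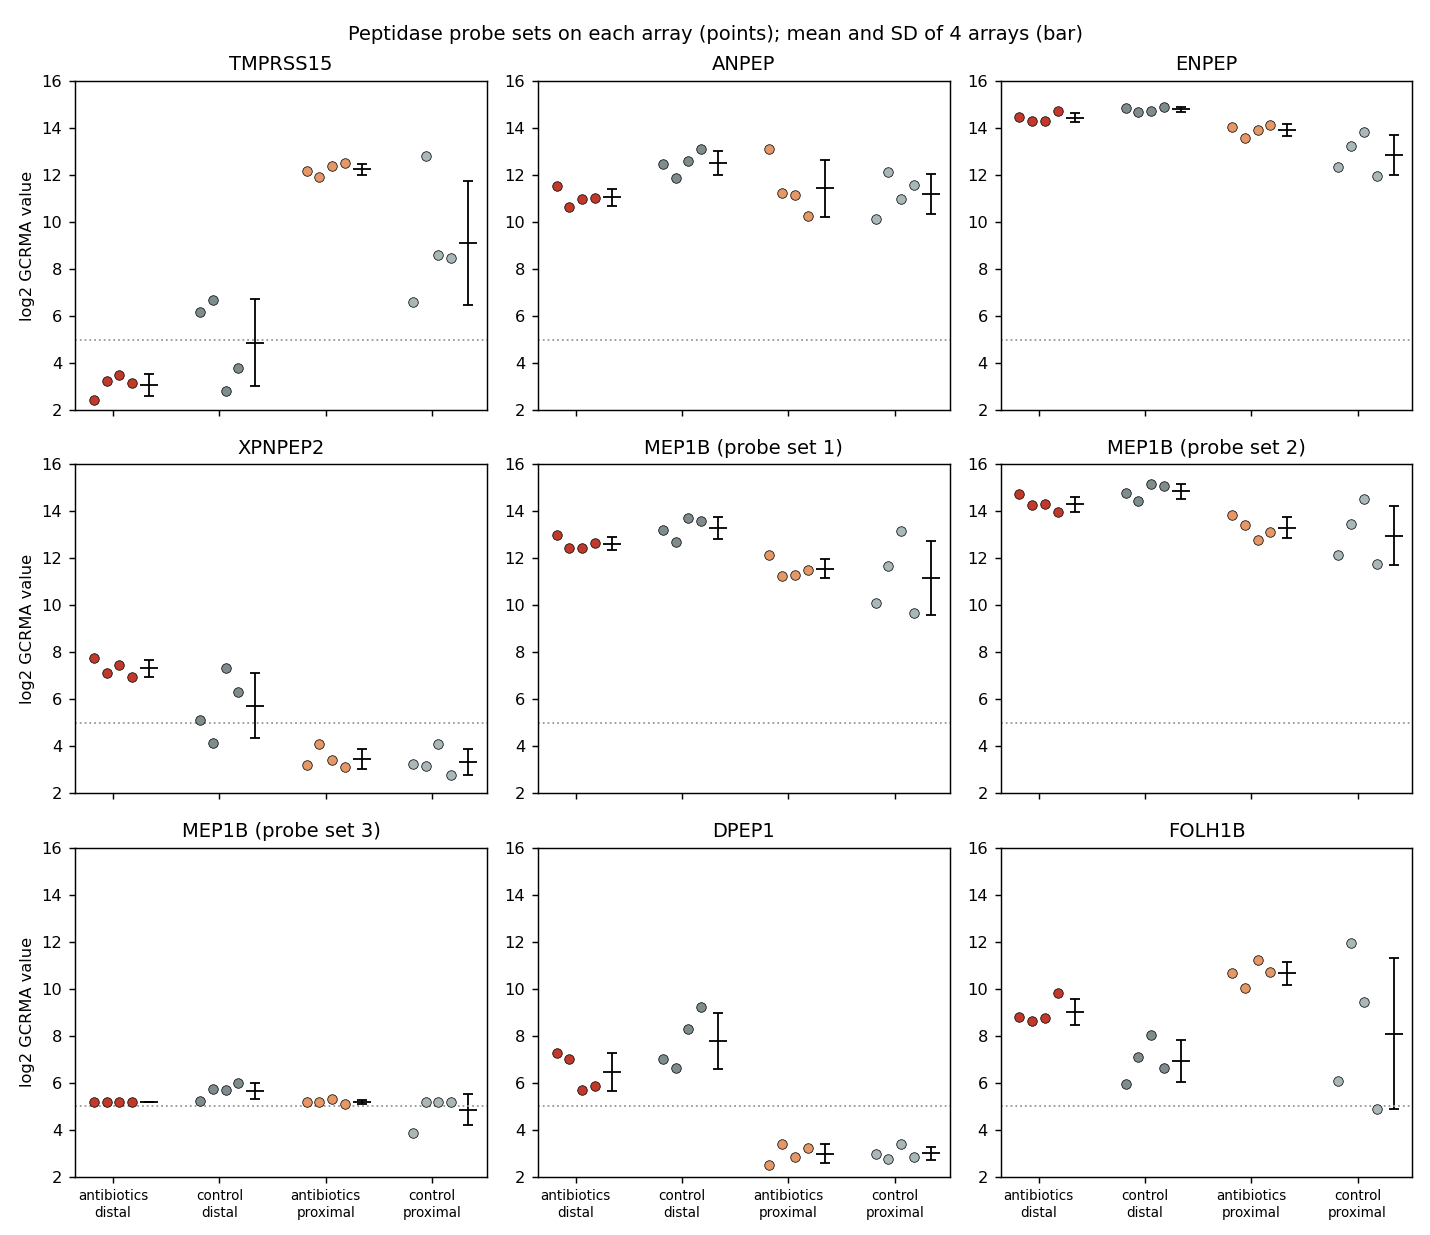
Log2 expression of the 9 peptidase probe sets on each of the 16 arrays, by group (x axis), with the group mean. TMPRSS15 sits between 11.94 and 12.50 on the antibiotics proximal arrays and between 2.43 and 3.49 on the antibiotics distal arrays, and DPEP1 and XPNPEP2 lie under the dotted line (log2 5, the filter level) on all 8 proximal arrays.

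The clearest pattern was the difference between segments. In piglets given antibiotics TMPRSS15 fell, and XPNPEP2 and DPEP1 rose, in distal against proximal tissue; in controls DPEP1 and ENPEP rose. These were 3 of 9 probe sets in piglets given antibiotics, where 5.25% of all tested probe sets passed (3.15% higher and 2.1% lower), and 2 of 9 in controls, where 0.364% passed (0.321% higher). The segments did not overlap for 7 of 9 members with antibiotics (12.4% of all) and for 4 of 9 in controls (3.93% of all). At an unadjusted p under 0.05 the members counted 4 of 9 with antibiotics against 17% of all probe sets, and 8 of 9 in controls against 7.99%. All 3 probe sets of MEP1B are among those 8. Because the members were chosen with earlier results known, these shares describe them and test nothing. The median change of the members was 0.53 with antibiotics (0.05 over all tested probe sets) and 1.88 in controls (-0.01 over all).

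TMPRSS15 encodes enteropeptidase. In piglets given antibiotics its values were 2.43, 3.25, 3.49 and 3.13 on the distal arrays, against 12.16, 11.94, 12.36 and 12.50 on the proximal arrays. Every distal array lay under the filter level and the proximal arrays differed from each other by little. The change was -9.17 (SE 1.02, adjusted p = 6.69e-05), at least 151-fold lower distally, where "at least" sets the proximal mean against the filter level. In controls its values were 6.18, 6.70, 2.82 and 3.79 distally, against 6.60, 12.82, 8.60 and 8.45 proximally. These control groups overlap: the distal array of piglet 88 lay above the lowest proximal array, which was that of piglet 83, and the difference of -4.25 (SE 1.02) did not pass the threshold (adjusted p = 0.117; with the piglet as a random block the adjusted p was 0.0466, and as a fixed effect 0.315). With each control array left out in turn it was -5.09 to -3.01 (adjusted p = 0.0364 to 0.327): it passed without the proximal array of piglet 83, where it was largest, and was smallest without that of piglet 88 (-3.01). Within the 8 control arrays the adjusted p was 0.555, and without the distal arrays of piglets 83 and 88 together the difference was -5.81 (adjusted p = 0.0365). Those were the highest control distal arrays and their removal was chosen after seeing the data, so it had to enlarge the difference.

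XPNPEP2, a membrane aminopeptidase that removes the residue in front of a proline, had the opposite layout. Its values were 7.75, 7.11, 7.48 and 6.95 on antibiotics distal arrays, against 3.22, 4.08, 3.42 and 3.12 on antibiotics proximal arrays, with no overlap. The change was 3.86 (SE 0.52, adjusted p = 0.000366), at least 5.00-fold higher distally; this call and that of TMPRSS15 held with each array left out and with either block. In controls the distal values of 5.11, 4.15, 7.34 and 6.33 were spread more widely, against 3.26, 3.16, 4.08 and 2.80 proximally. The difference of 2.41 (SE 0.52) missed the threshold (adjusted p = 0.0631; 0.0235 with the piglet as a random block and 0.254 as a fixed effect), although the groups did not overlap. With each control array left out it was 1.87 to 2.93 (adjusted p = 0.00485 to 0.222), and it passed without the distal array of piglet 88 or the proximal array of piglet 89 (2.66, adjusted p = 0.0398). Within the 8 control arrays the adjusted p was 0.448. The 2 lowest control distal arrays were those of piglets 83 and 88, the same 2 in which FABP6 was high. Without both the control difference was 3.51 (adjusted p = 0.000651). This removal was chosen after seeing the data and had to enlarge the difference.

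DPEP1 is a membrane dipeptidase that splits dipeptides and also acts on the leukotriene and glutathione breakdown pathways. It was 7.26, 7.02, 5.67 and 5.88 on antibiotics distal arrays, against 2.49, 3.39, 2.86 and 3.22 on antibiotics proximal arrays. In controls it was 7.01, 6.61, 8.28 and 9.24 distally, against 2.97, 2.76, 3.39 and 2.86 proximally. No proximal array of either treatment exceeded the filter level and no distal array lay below it. The gene rose distally with antibiotics (3.47, SE 0.49, adjusted p = 0.000682, at least 2.74-fold) and in controls (4.79, SE 0.49, adjusted p = 4.81e-05, at least 6.89-fold). Both calls held with each array left out in turn and with the piglet as a random block or as a fixed effect, where the larger adjusted p was 0.0294.

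ENPEP, glutamyl aminopeptidase, removes acidic residues and also trims angiotensin II. It was bright throughout. Its values were 14.48, 14.29, 14.30 and 14.73 on antibiotics distal arrays, against 14.05, 13.56, 13.91 and 14.13 on antibiotics proximal arrays, a difference of 0.53 (SE 0.32, adjusted p = 0.439). In controls it was 14.86, 14.69, 14.72 and 14.91 distally, against 12.33, 13.25, 13.81 and 11.96 proximally. Here it rose by 1.96, or 3.88-fold (SE 0.32, adjusted p = 0.0072), and the groups did not overlap. The call was lost with the piglet as a fixed effect (adjusted p = 0.261), within the 8 control arrays alone (0.198) and without the distal arrays of control piglets 83 and 88 together (0.066).

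MEP1B encodes the beta subunit of meprin, a zinc endopeptidase of the microvillus membrane that cuts next to acidic residues. Its first probe set had 13.00, 12.42, 12.43 and 12.67 on antibiotics distal arrays, against 12.14, 11.27, 11.28 and 11.52 on antibiotics proximal arrays, and 13.19, 12.69, 13.71 and 13.61 on control distal arrays, against 10.10, 11.70, 13.16 and 9.69 on control proximal arrays. Control proximal tissue thus covered a wider span than any other group, with piglet 89 near the distal values and piglets 83 and 92 low. The difference was 1.08 with antibiotics (SE 0.55, adjusted p = 0.348) and 2.14 in controls (SE 0.55, adjusted p = 0.157), and without the proximal array of control piglet 89 the control difference was 2.81 (adjusted p = 0.0029). The second probe set, whose name carries the suffix that Affymetrix gives to probes shared by several transcripts, went the same way: 1.01 with antibiotics (SE 0.46, adjusted p = 0.271) and 1.88 in controls (SE 0.46, adjusted p = 0.121, and 0.00436 without the proximal array of control piglet 89). The third probe set was dim, within 0.02 of its median of 5.19 on 10 of the 16 arrays, and differed between segments by -0.01 with antibiotics (adjusted p = 0.992) and 0.81 in controls (adjusted p = 0.343).

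ANPEP, aminopeptidase N, is the broad-specificity aminopeptidase of the brush border and, in pigs, the receptor of transmissible gastroenteritis virus. In antibiotics piglets it was 11.52, 10.63, 10.99 and 11.04 distally, against 13.12, 11.24, 11.14 and 10.25 proximally, and in controls it was 12.47, 11.89, 12.60 and 13.11 distally, against 10.14, 12.12, 10.98 and 11.57 proximally. The segments overlapped in both treatments. The difference was -0.39 with antibiotics (SE 0.52, adjusted p = 0.785) and 1.32 in controls (SE 0.52, adjusted p = 0.469).

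FOLH1B carries FOLH1 as a synonym in RefSeq, and FOLH1 is the enzyme, also known as glutamate carboxypeptidase II, that removes terminal glutamate from folate and from some peptides. It was 8.80, 8.63, 8.76 and 9.82 on antibiotics distal arrays, against 10.66, 10.03, 11.23 and 10.70 on antibiotics proximal arrays. The groups did not overlap, and the difference of -1.65 (SE 1.07) had an adjusted p of 0.485, or 0.0466 with the piglet as a fixed effect. In controls it was 5.93, 7.11, 8.05 and 6.62 distally, against 6.07, 11.96, 9.45 and 4.88 proximally, a span of 7.08 among the proximal arrays (difference -1.16, SE 1.07, adjusted p = 0.924). Piglet 88, whose proximal array was the highest here, was also the highest control proximal array for TMPRSS15.

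**Figure D2:**
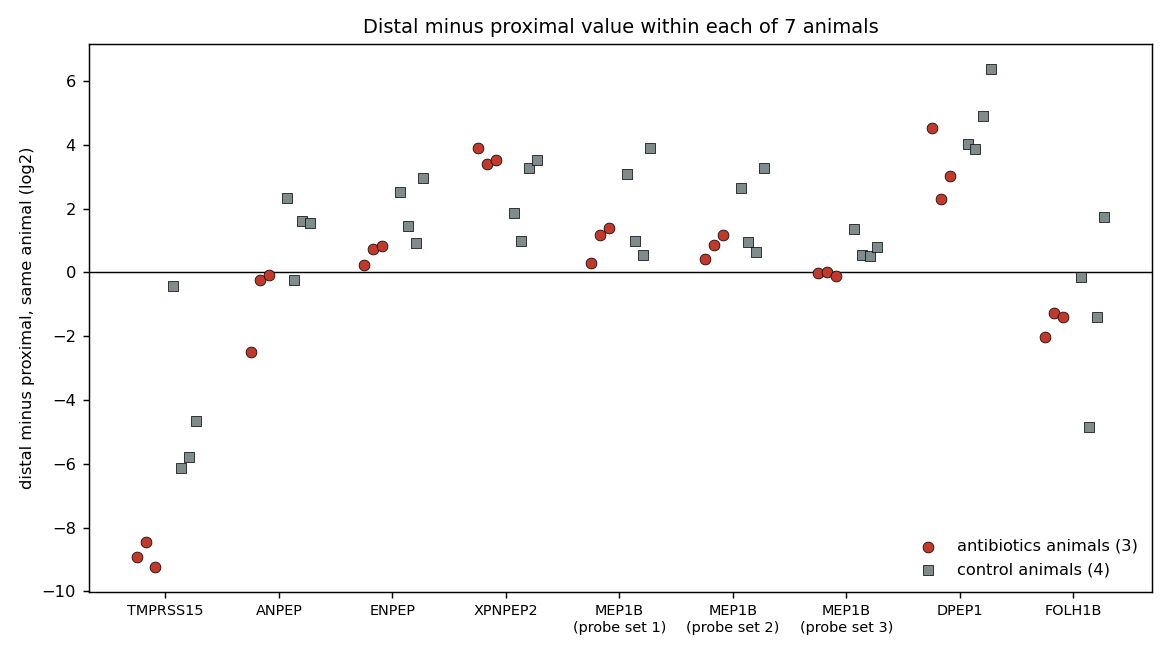
Distal minus proximal log2 difference within each of the 7 piglets with both segments, 3 given antibiotics and 4 controls, for the 9 probe sets. TMPRSS15 lies below 0 in all 7 piglets and DPEP1, XPNPEP2 and ENPEP lie above 0 in all 7.

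Within piglets the layout was the same for most members. TMPRSS15 was lower distally in 7 of 7 piglets, by -8.91, -8.44 and -9.23 in the piglets given antibiotics and by -0.42, -6.13, -5.78 and -4.66 in controls 83, 88, 89 and 92. DPEP1 was higher in 7 of 7, by 4.52, 2.29 and 3.02 with antibiotics and 4.04, 3.86, 4.89 and 6.38 in controls, and XPNPEP2 in 7 of 7, by 3.89, 3.40 and 3.53 with antibiotics and 1.85, 0.99, 3.26 and 3.53 in controls. ENPEP was higher in 7 of 7, by 0.23, 0.74 and 0.81 with antibiotics and 2.52, 1.44, 0.91 and 2.95 in controls, and both bright probe sets of MEP1B were as well. ANPEP was higher in 3 of 7 and FOLH1B in 1 of 7. Of all tested probe sets 4.34% were higher and 2.7% lower in 7 of 7 piglets, 7.05% together. Among the 9 member probe sets 5 were higher, including both bright probe sets of MEP1B, and 1 was lower.

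Antibiotics against saline gave no member past the threshold in either segment. In distal tissue 0 of 9 passed (2.12% of all tested probe sets did), and 3 members had an unadjusted p under 0.05 (15.8% of all). In proximal tissue 0 of 9 passed (0.147% of all) and 3 had an unadjusted p under 0.05 (12.9% of all). The median change of the members was -0.55 distally (0.00 over all tested probe sets) and 0.34 proximally (-0.07 over all). Groups did not overlap for 3 of 9 members distally, ANPEP, FOLH1B and the third probe set of MEP1B (12.7% of all probe sets), and for 0 of 9 proximally (3.05% of all).

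**Figure D3:**
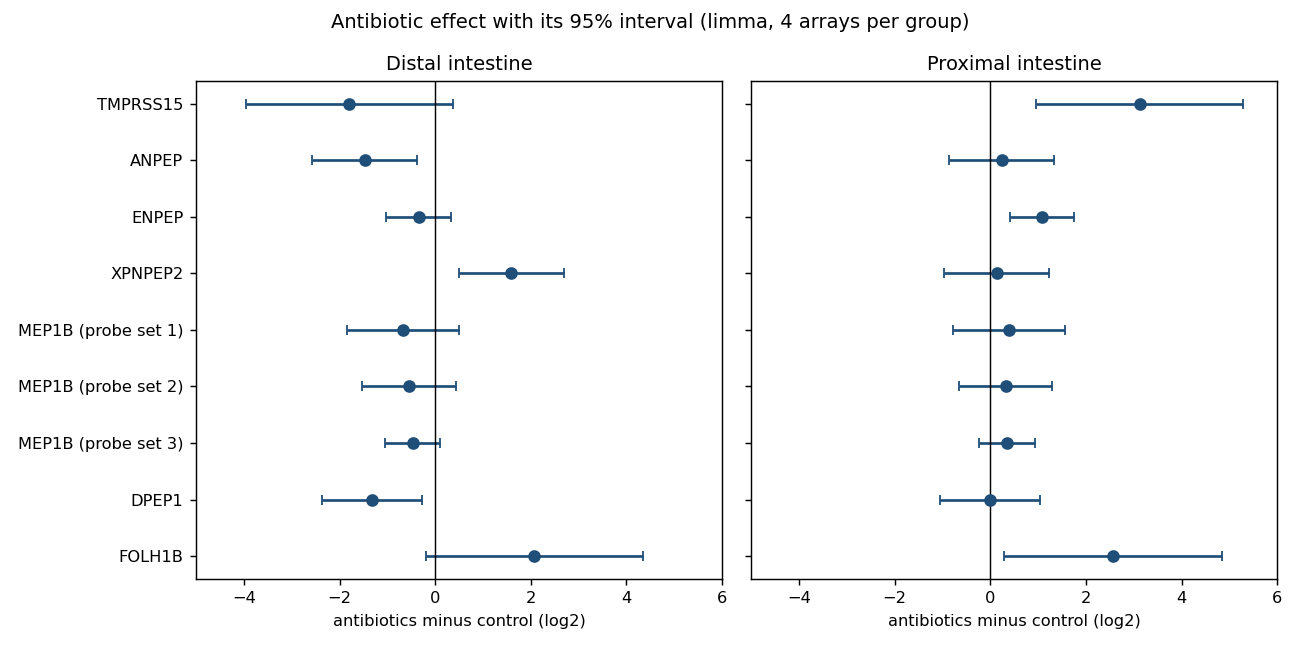
Log2 difference, antibiotics minus control, with its 95% confidence interval for each probe set, in distal and proximal tissue. The distal intervals of ANPEP (-2.57 to -0.37), DPEP1 (-2.38 to -0.28) and XPNPEP2 (0.50 to 2.69) and the proximal intervals of ENPEP (0.40 to 1.75), TMPRSS15 (0.95 to 5.29) and FOLH1B (0.29 to 4.84) do not reach 0, but no member passed after adjustment over all probe sets.

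In distal tissue ANPEP averaged 11.05 ± 0.37 with antibiotics and 12.52 ± 0.50 in controls (SD, n = 4 each), a difference of -1.47 (SE 0.52, adjusted p = 0.166). All 4 antibiotics arrays lay below all 4 controls, and the adjusted p was 0.0296 within the 8 distal arrays, while without control distal arrays 83 and 88 the difference was -1.81 (adjusted p = 0.155). Aminopeptidase N is also carried by myeloid cells, whose markers moved in the same tissue: their summed level was 9.60 to 10.67 on antibiotics distal arrays and 11.85 to 12.53 on control distal arrays. Of the 7 tested genes 3 fell (2.12% of all tested probe sets passed), and all 7 had lower means. In proximal tissue 1 of these 7 myeloid genes fell with antibiotics (0.147% of all passed) and 5 had lower means. CD14 and ITGAM, defining markers of myeloid cells, were at the floor of the values. Of the 12 enterocyte markers, 9 had lower distal means with antibiotics than in controls, and 0 passed. The part of either cell type in the ANPEP values was not tested. In proximal tissue ANPEP averaged 11.44 ± 1.21 with antibiotics and 11.20 ± 0.85 in controls (difference 0.24, adjusted p = 0.893).

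XPNPEP2 averaged 7.32 ± 0.36 with antibiotics and 5.73 ± 1.39 in controls in distal tissue, a difference of 1.59 (SE 0.52, adjusted p = 0.129; 0.171 within the 8 distal arrays). With each array left out it was 1.06 to 2.13 (adjusted p = 0.0242 to 0.294), passing only where control piglet 89 was left out. With control distal arrays 83 and 88, its lowest, both left out it was 0.49 (adjusted p = 0.572). That removal was chosen after seeing the data and had to shrink the XPNPEP2 difference. DPEP1 averaged 6.46 ± 0.80 with antibiotics and 7.78 ± 1.2 in controls, a difference of -1.33 (SE 0.49, adjusted p = 0.19, and 0.245 within the 8 distal arrays). Without control distal arrays 83 and 88, again the lowest, the DPEP1 difference was -2.30 (adjusted p = 0.02), and leaving them out had to widen it. FOLH1B averaged 9.0 ± 0.55 with antibiotics and 6.93 ± 0.89 in controls (difference 2.07, SE 1.07, adjusted p = 0.375; 0.0398 within the 8 distal arrays), and without control distal arrays 83 and 88 the difference was 1.67 (adjusted p = 0.571). TMPRSS15, MEP1B and ENPEP had lower distal means with antibiotics, by -1.80, -0.67 for the first probe set of MEP1B, and -0.35 (adjusted p = 0.432, 0.615 and 0.659). For TMPRSS15 the difference was -0.23 without control distal arrays 83 and 88, the highest for this gene (adjusted p = 0.946), and leaving them out had to bring it nearer to no difference.

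In proximal tissue TMPRSS15 averaged 12.24 ± 0.25 with antibiotics and 9.12 ± 2.63 in controls, a difference of 3.12 (SE 1.02, adjusted p = 0.22). The control mean rests on an array at 12.82, that of piglet 88, beside 3 arrays at 6.60 to 8.60, and without it the difference was 4.36 (adjusted p = 0.00632). With any other array left out it was 2.28 to 3.22 (adjusted p up to 0.589). FOLH1B averaged 10.65 ± 0.49 with antibiotics and 8.09 ± 3.23 in controls, a difference of 2.56 (SE 1.07, adjusted p = 0.34), and without the same array it was 3.85 (adjusted p = 0.0146). Without control proximal array 92 it was 1.49, and without array 83 it was 1.89 (adjusted p = 0.726 and 0.728). ENPEP averaged 13.91 ± 0.25 with antibiotics and 12.84 ± 0.84 in controls, a difference of 1.08 (SE 0.32, adjusted p = 0.183), and without control proximal array 89 it was 1.40 (adjusted p = 0.0416), against 0.78 without array 92 (adjusted p = 0.523). Within the 8 proximal arrays the adjusted p was 0.555 for TMPRSS15, 0.678 for FOLH1B and 0.594 for ENPEP. The summed level of the enterocyte markers was 18.44 to 18.78 on antibiotics proximal arrays and 17.69 to 18.52 on control proximal arrays, lowest in control piglets 83 and 92. These were also the 2 lowest control proximal arrays for TMPRSS15, FOLH1B, ENPEP and both bright probe sets of MEP1B. Of the 12 markers 10 had higher proximal means with antibiotics and 2 lower, and 0 passed. Not every marker was lowest in 83 and 92: CDH17 was 12.93 and 13.33 there, against 11.87 in control piglet 88. The part of this in the results was not tested.

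The difference between the antibiotic effects of the segments passed for 0 of 9 members (0.191% of all tested probe sets). It was -4.92 for TMPRSS15 (SE 1.45, adjusted p = 0.339), -1.42 for ENPEP (SE 0.45, adjusted p = 0.416) and -1.71 for ANPEP (SE 0.73, adjusted p = 0.68), the 3 members with an unadjusted p under 0.05 (6.62% of all). Without the proximal array of control piglet 88 the TMPRSS15 difference was -6.15 (adjusted p = 0.023). On means of the 2 segments per piglet, 3 piglets given antibiotics against 4 controls, 0 of 9 members passed (0.347% of all tested probe sets). The members with an unadjusted p under 0.05 (16.1% of all) were FOLH1B (2.35, SE 0.92, adjusted p = 0.278) and DPEP1 (-0.84, SE 0.34, adjusted p = 0.293). TMPRSS15 differed by 0.73 (adjusted p = 0.722), and by 1.65 without control piglet 88 (adjusted p = 0.0181).

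The spread between piglets was wider in controls for most members. The SD was higher in control than in antibiotics arrays for 7 of 9 probe sets in proximal tissue (49.9% of all tested probe sets) and for 8 of 9 in distal tissue (59.8%). The median SD of the members was 0.41 with antibiotics and 0.85 in controls proximally, where over all probe sets it was 0.48 and 0.47, and 0.36 with antibiotics and 0.50 in controls distally, where it was 0.32 and 0.38. Piglets 83, 88, 89 and 92 differed in their values from gene to gene, so that no single piglet was high for every member: piglet 88 was highest for TMPRSS15 and FOLH1B proximally, and piglet 89 for ENPEP and MEP1B.

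**Figure D4:**
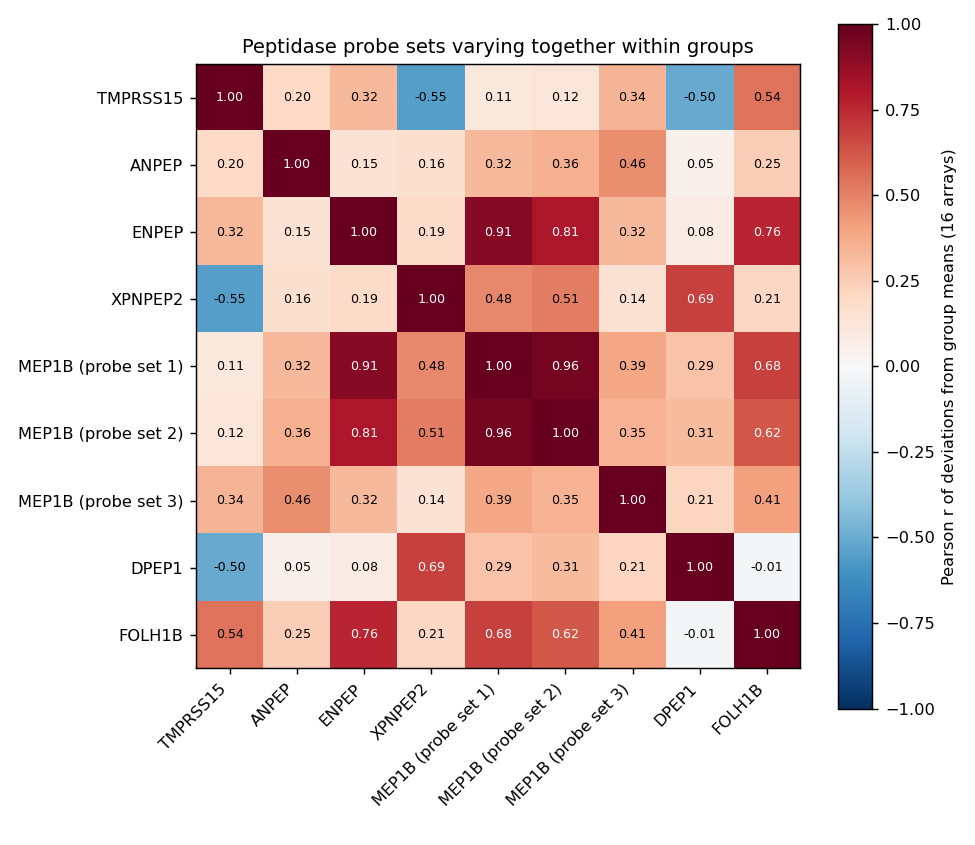
Pearson correlation of the deviations from group means over the 16 arrays for each pair of probe sets. The first probe set of MEP1B stands at 0.91 with ENPEP and at 0.96 with the second MEP1B probe set.

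Taken as deviations from the group means over 16 arrays of 9 piglets, the pairs that varied most alike were MEP1B and ENPEP at r = 0.91 and 0.81 for its bright probe sets, ENPEP and FOLH1B at 0.76, and XPNPEP2 and DPEP1 at 0.69. Over the 12 arrays without the control proximal group MEP1B and ENPEP stood at 0.46 and -0.07 and ENPEP and FOLH1B at 0.29, so that both pairs rested on that group, while XPNPEP2 and DPEP1 stood at 0.68. TMPRSS15 stood at -0.55 against XPNPEP2 and at -0.50 against DPEP1 over the 16 arrays, and at -0.94 and -0.76 over the 12. Among the 12 it also spread most on the control distal arrays (SD 1.86, against 0.46 and 0.25 in the antibiotics groups). Against the bright MEP1B probe sets TMPRSS15 stood at 0.11 and 0.12 over the 16 arrays and at -0.71 and -0.59 over the 12. These are descriptions of these arrays, in which 7 piglets are present with both segments.

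Other genes of the same tasks were counted from lists. Of 6 tested genes listed as peptidases of the epithelial surface besides the members, 1 was higher in distal than in proximal tissue of piglets given antibiotics. Of all tested probe sets 3.15% were higher and 2.1% lower in that comparison. The gene that passed was CPD (carboxypeptidase D, 1.29, SE 0.25, adjusted p = 0.00531), and none passed in the other comparisons. RNA values do not show whether this enzyme lies at the surface or inside the cell. Their median segment difference was 0.81 with antibiotics and 0.65 in controls (0.05 and -0.01 over all tested probe sets), with 4 of 6 means higher distally with antibiotics and 6 of 6 in controls. DPP4, the proline-cutting dipeptidyl peptidase, averaged 11.67 with antibiotics and 12.46 in controls distally. Of 12 cytosolic peptidases 1 was higher in distal than in proximal tissue of piglets given antibiotics (3.15% of all were), CNDP2 (0.86, SE 0.23, adjusted p = 0.038). Of 6 peptide and amino acid transporters 1 was higher in distal than in proximal tissue of piglets given antibiotics (3.15% of all were), SLC1A1 (glutamate transporter, 3.02, SE 0.32, adjusted p = 4.61e-05). SLC15A1, which carries the di- and tripeptides, averaged 10.27 with antibiotics and 10.12 in controls distally and 10.22 with antibiotics and 9.36 in controls proximally. Among 8 microvillus structure genes 0 passed in limma, with all 8 means higher distally in both treatments (median 0.37 with antibiotics and 0.50 in controls). Of the 12 enterocyte markers 3 were lower in distal than in proximal tissue of piglets given antibiotics (2.1% of all were): SLC5A1, the sodium-glucose carrier (-3.46, SE 0.63, adjusted p = 0.00416), APOA4 (-3.01, SE 0.51, adjusted p = 0.00304) and PCK1 (-3.24, SE 0.88, adjusted p = 0.043). Antibiotics against control gave 0 calls for these lists in either segment.

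Genes most like each member were sought over the 16 arrays with group means left in, so differences between segments and treatments enter these r. The genes whose levels followed a member most closely were, for TMPRSS15, TM4SF5 (r = 0.957), SLC2A5 (0.930) and TMEM139 (0.924). For XPNPEP2 they were APOE (0.968), ACSS3 (0.944) and CTSH (0.936), and for DPEP1 they were CNDP2 (0.882), SLPI (0.881) and CD164 (0.868). ENPEP was followed by GGH (0.932), GK (0.925) and ACADM (0.918). MEP1B was followed by TINAG (0.910), GGH (0.894) and GK (0.887), so that GGH and GK stood beside both of these genes. FOLH1B was followed by HSD17B2 (0.901) and OSBPL1A (0.895) beside LOC100157017 (0.903), and ANPEP by DAZAP2 (0.836), CANT1 (0.818) and C2H11orf24 (0.809).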

How the data were processed

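Whole small-intestinal tissue was profiled on an Affymetrix porcine array. Per the labels' protocols, RNA was extracted with Trizol and purified over RNeasy columns, DNase included, before labelling with the 3′ IVT Express kit. GCOS 1.2, GCRMA and limma are the tools named, per the submitters' processing notes, with no settings given. The authors deposited 1 log2 value for each probe set and array. The lowest was 2.14, and 39.7% of values lay under 2.5, so fold differences down to this floor are poorly determined.

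After removal of 124 control probe sets of 24123, group means over 16 arrays were fitted with limma 3.58.1 in R 4.3.3 (lmFit, eBayes; animal blocks with statmod 1.5.0). P values were Benjamini-Hochberg adjusted over 11538 tested probe sets, with a threshold of 0.05. Groups follow the tissue and treatment labels. Members and lists were chosen with earlier results of these data known. Of a list, at most 3 genes that passed are named for a comparison, those with the largest moderated statistic, plus DPP4 and SLC15A1 as values and markers of cell types or segments. Genes most like a member are the 3 with the highest Pearson r. Segments are paired by the number in the titles: residuals of a piglet's own segments correlated at 0.0293 to 0.526, above 0.1 in 5 of 7 piglets. In piglets 86 and 89 the distal array correlated more highly with the proximal array of another piglet of the same treatment. The fit was tested on simulated data. Summaries and figures used Python 3.11.15, pandas 2.3.3, numpy 2.4.6 and matplotlib 3.10.9. Alternatives were other filters, scalings, variance models, array weights, array subsets, animal blocks and arrays left out in turn. The covariate for RNA quality and the joint removal of control distal arrays 83 and 88 were added after seeing the data.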

Additional observations from a re-analysis of the deposited data

Results flagged for a closer look

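Among the 36 groups of 4 arrays (9 probe sets in 4 groups), 3 held an array whose gap to its nearest neighbour exceeded the 95% critical value of Dixon's ratio (0.829), where chance gives about 1 in 20. For FOLH1B the antibiotics distal array of piglet 95 was highest at 9.82. For the third MEP1B probe set the control proximal array of piglet 83 was lowest at 3.85, and the antibiotics distal array of piglet 86 was lowest at 5.17, in a group that spans under 0.02.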

How the results depend on the processing

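The 4 arrays a group limit the precision, and DPEP1 and XPNPEP2 proximally and TMPRSS15 distally with antibiotics lay under the filter level, where sizes are bounds. Over the member results and alternatives, 969 kept direction and side of the threshold, 36 newly passed, 3 no longer passed and 30 turned sign. The 3 lost calls were those of ENPEP between control segments. The cause of the changes was not tested.

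Member calls with antibiotics against control were, distally, 0 in the reported fit, 2 with array quality weights (ANPEP, XPNPEP2), 2 within the distal arrays alone (ANPEP, FOLH1B), 1 without control distal arrays 83 and 88 (DPEP1), and 0 to 1 with each array left out. Proximally they were 0, 3 with weights (ENPEP, TMPRSS15, FOLH1B), and 0 to 2 with each array left out. For the difference of these effects they were 0, 2 with weights and 0 to 1 with each array left out, and on animal means 0 to 1. Between segments in controls they were 2, 5 with weights, 1 within the control arrays alone, 3 without control distal arrays 83 and 88 (XPNPEP2 and TMPRSS15 gained, ENPEP lost), 3 each with equal medians and with the RNA quality covariate (XPNPEP2 gained), and 2 to 5 with each array left out; with the replicate block they were 4 (piglet as a random block) and 1 (fixed effect). Between segments with antibiotics they were 3, 6 with weights, 5 within the antibiotics arrays alone, and with the replicate block 3 (random) and 4 (fixed). The block changed no other member call.

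Some differences turned sign. For DPEP1 proximally, the antibiotics difference was 0.042 with equal array medians, 0.029 with the replicate block (random) and 0.088 with the RNA quality covariate. With that covariate FOLH1B was 0.10 for the difference of effects. For the third MEP1B probe set between segments with antibiotics it was 0.00584 with quantile normalization, 0.019 with equal medians and 0.12 with the covariate. On animal means the MEP1B probe sets were 0.056 and 0.11 with weights and 0.028 with quantile normalization. With each array left out the proximal antibiotics difference was -0.32 to 0.64 for ANPEP, -0.10 to 1.06 and -0.075 to 0.84 for the bright MEP1B probe sets, -0.14 to 0.16 for DPEP1 and -0.074 to 0.39 for XPNPEP2. The FOLH1B difference of effects was -1.78 to 0.58 (-0.49 as reported), and its segment difference in controls -2.23 to 0.13 (-1.16 as reported). Between segments with antibiotics ANPEP was -0.79 to 0.17 and the third MEP1B probe set -0.044 to 0.029. On animal means the MEP1B probe sets were -0.39 to 0.21, -0.32 to 0.15 and -0.29 to 0.063.

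Over all probe sets, calls were 245 distally (138 with no filter, 159 with only piglets with both segments, 430 within the distal arrays, 1665 with weights, 106 to 353 with each array left out). Proximally they were 17 (1, 55, 0 within the proximal arrays, 951, and 2 to 556 under the same settings, 28 with equal medians and 11 with the covariate). For the difference they were 22 (11 with no filter, 14 with only piglets with both segments, 210 with weights, 39 with the random block, 10 without control distal arrays 83 and 88, 10 to 44 with each array left out). Between segments they were 42 in controls (80 with weights, 20 within the control arrays, 74 with the random and 19 with the fixed block, 78 with the covariate, 25 to 77 with each array left out) and 606 with antibiotics (3008 with weights, 350 with the fixed block, 353 to 638 with each array left out). On animal means they were 40 (922 with weights, 1 with no filter, 19 to 416 with each animal left out).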
